A study of Homo sapiens with 4 samples.

Results

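The matrix metalloproteinases (MMPs), the ADAM and ADAMTS metalloproteases and the tissue inhibitors of metalloproteinases (TIMPs) were examined on 4 Clariom D arrays of SAS cells. A member was a gene whose symbol in the platform annotation fits the MMP, TIMP, ADAM or ADAMTS naming scheme, on an array row naming no other gene, with antisense genes and pseudogenes left out. Of 33458 genes with a row of their own, 62 met this rule, of which 22 were MMPs, 3 TIMPs, 19 ADAMs and 18 ADAMTS genes. A gene with several rows was taken by the row of highest mean signal. TIMP2 and MMP23B lie on rows that also name another gene, and thus have no value here.

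SAS is an established line of human squamous carcinoma of the tongue. In 2 arrays the RNA came from cells labelled scrambled control, and in the other 2 from SAS cells that stably carry the full-length C6orf141 sequence in the vector pLVX-IRES-Neo after selection with G418. Neither the labels nor the methods name the vector or the selection of the control cells, or whether the stable cells were a clone or a pool. All cells were grown in Dulbecco's modified Eagle medium with fetal bovine serum. No source says whether replicate arrays represent separate cultures, and the tests thus rest on array-to-array spread that may be technical.

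MMPs are zinc-dependent enzymes that cut collagens and other matrix proteins. They are made as inactive precursors and are held in check by TIMPs, which block the catalytic site. ADAMs are membrane-anchored relatives, many of which shed growth factors, receptors and adhesion molecules from the cell surface, while several have lost the catalytic residues and act in adhesion. ADAMTS proteins are secreted and cut proteoglycans and procollagens. In oral squamous carcinoma, MMPs and their inhibitors are best known for matrix breakdown at the invading front, which makes them of interest here because the study tested migration and invasion of these cells.

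The values are log2 signals per transcript cluster, as deposited. C6orf141 itself, the gene introduced, was at 8.57 and 7.92 in controls and at 11.36 and 12.04 in the cells that carry the construct. In the absence of detection calls, a background level of 5.81 was set at the 95th percentile of 400 olfactory receptor genes. Negative control rows of the arrays reached higher, with 95th percentiles from 7.64 to 7.72. Control arrays 1 and 2 were less alike than the overexpression arrays, and 2.68% of genes above the background level differed by over 2-fold between the controls against 0.266% between the overexpression arrays. Of 12 squamous carcinoma markers 9 were measured, and all 9, among them KRT5, DSG3 and SFN, were above the background level. None of 6 endothelial markers was above it, nor were the leukocyte marker PTPRC and the fibroblast markers DCN and LUM, although COL1A1, COL1A2, FAP, CD68, CD3E and CSF1R were. No marker on these 4 lists had an unadjusted p below 0.05 in limma. The number of arrays limits the precision, and an exact permutation test of 2 against 2 arrays cannot give a two-sided p below 0.333.

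SAS cells had a signal above the background level for 30 of the 62 members, 10 MMPs, 2 TIMPs, 12 ADAMs and 6 ADAMTS genes. Only 18 of the 30 also exceeded the level of 7.72 set by the negative control rows. These 18 were MMP1, MMP2, MMP7, MMP10, MMP14, TIMP1, TIMP3, ADAM8, ADAM9, ADAM10, ADAM12, ADAM15, ADAM17, ADAM19, ADAM22, ADAMTS1, ADAMTS6 and ADAMTS12. The other 32 members had mean log2 signals from 3.01 to 5.31. Among them were all 6 secreted MMPs outside the classical subgroups, MMP12, MMP19, MMP20, MMP21, MMP27 and MMP28, and all 3 procollagen N-proteinases ADAMTS2, ADAMTS3 and ADAMTS14. Signals of different genes come from different probes and were not ranked.

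**Figure D1:**
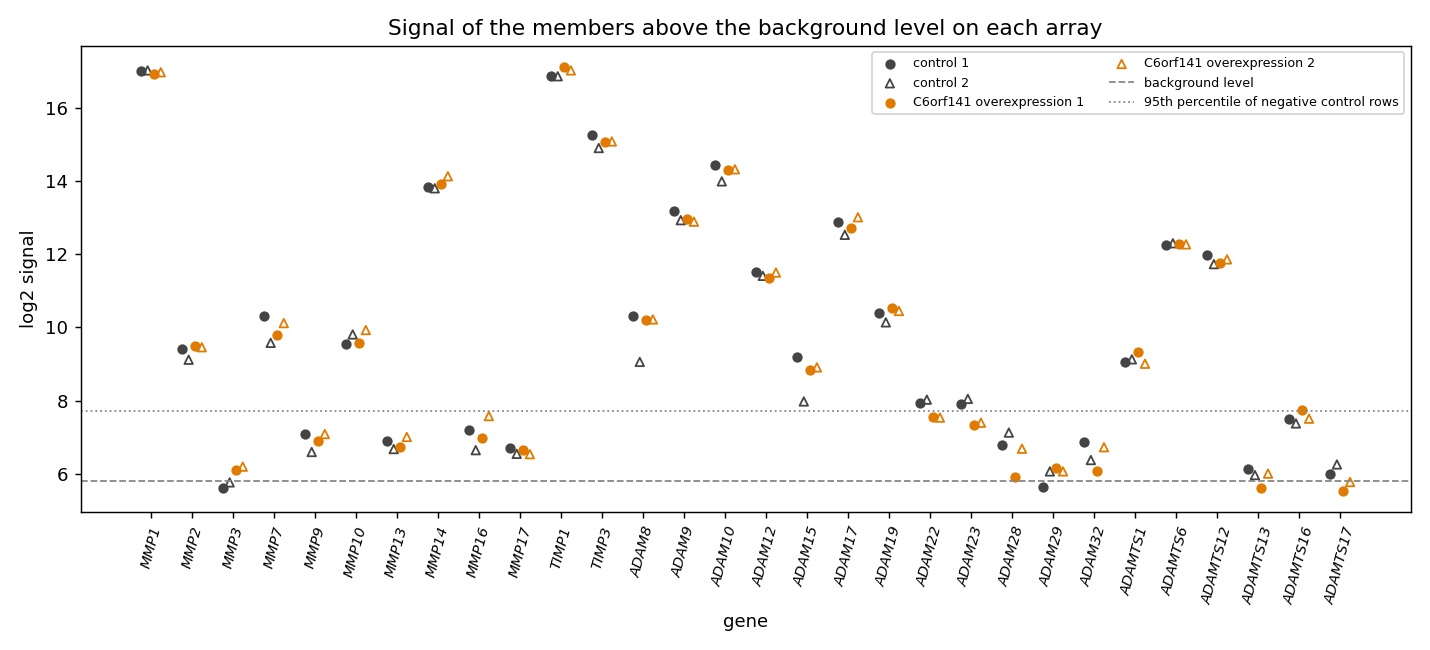
Log2 signal (vertical axis) of the 30 members above the background level on each of the 4 arrays. Grey symbols are control arrays, orange symbols are overexpression arrays, circles are replicate 1 and triangles replicate 2. The dashed line is the background level of 5.81 and the dotted line the 95th percentile of negative control rows, 7.72. Heights of different genes cannot be compared. For ADAM8 and ADAM15 control array 2 lies below the other 3 arrays.

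Of the 62 members, 1 passed an unadjusted p below 0.05 between the groups in limma, a linear model that shares its estimate of the spread over all rows. This was ADAM23, with a lower signal under overexpression. Over all genes 2.11% passed, 1.04% higher and 1.07% lower, so 1 of 62, or 1.61%, is near the background. Of all genes that passed, 79.5% were not above the background level, whereas ADAM23 was above it. Among the 30 members above it 1 passed (3.33%), for which no share of all genes is given here. At an adjusted p below 0.05 (Benjamini-Hochberg over all genes, limma) 0 members passed, against 0.0% of 33458 genes. The adjusted p of every member was 1.00. C6orf141 itself, with a log2 difference of 3.46, had an adjusted p of 0.214 in limma. The adjusted threshold thus missed even the gene introduced, and says little about the members. The methods' t-test, run as an alternative, gave 2 higher and 3 lower members at the same unadjusted threshold, against a background of 4.08%. These were TIMP1 and MMP3 among the higher and ADAM22, ADAM23 and the dim MMP19 among the lower.

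Over the 30 members above the background level the median log2 difference was 0.072, against −0.004 over all 16146 genes above it. Without control replicate 2 it was −0.091, against −0.037 over all genes. The differences ranged from −0.67 for ADAM28 to 0.53 for ADAM8. In 12 of the 30 members the overexpression arrays lay on 1 side of both control arrays, 7 higher and 5 lower, where 27.6% of all genes above the background level had such groups, 12.6% higher and 15.0% lower. The 7 take in MMP3, above that level only on the overexpression arrays. The 5 take in ADAMTS17, above it only on the control arrays. Among the 32 dim members 12 had such separate groups, against 29.4% of all genes, a share that takes in the genes above the background level. The 95% intervals of the differences had half-widths between 0.51 and 0.90. In 24 of the 30 members the interval lay inside a 2-fold change in either direction, and for ADAM8, ADAM15, ADAM23, ADAM28, MMP16 and ADAMTS17 it reached beyond. The smallest difference that passed an unadjusted p below 0.05 over all genes was 1.43-fold.

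**Figure D2:**
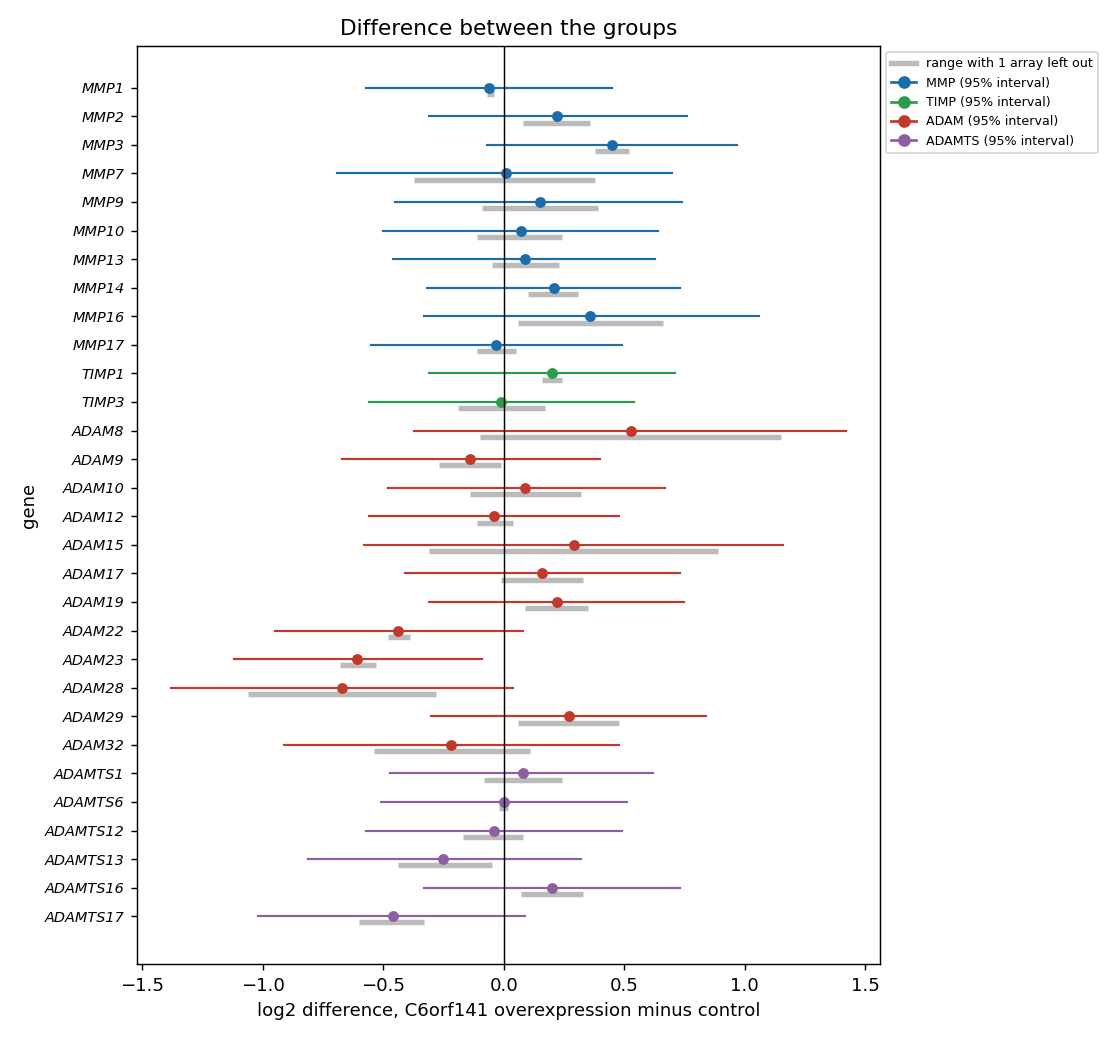
Log2 difference of overexpression minus control (horizontal axis) for the 30 members above the background level, with 95% intervals from limma as coloured lines and the range of the difference with 1 array left out as grey bars. The interval of ADAM23, from −1.12 to −0.09, leaves out 0. The grey bars of ADAM8 and ADAM15 are among the widest.

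Collagenases cut the triple helix of fibrillar collagens. MMP1, the interstitial collagenase, showed log2 signals of 17.00 and 17.02 in controls and 16.93 and 16.97 under overexpression. The arrays of each group were thus close, and the overexpression arrays were the lower ones by little. The difference was −0.06 on the log2 scale with an interval from −0.57 to 0.45. MMP13, collagenase 3, had 6.90 and 6.68 in controls and 6.73 and 7.01 under overexpression, with overlapping groups. It lay under the level of the negative control rows. MMP8, the neutrophil collagenase, was not above the background level, with a mean of 4.02.

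The gelatinases MMP2 and MMP9 cut denatured collagen and basement membrane collagen. MMP2 had 9.40 and 9.12 in controls and 9.50 and 9.46 under overexpression, a log2 difference of 0.22 (95% interval from −0.31 to 0.76). Its groups did not overlap, with control array 2 the lowest. MMP9 had 7.08 and 6.60 in controls and 6.89 and 7.09 under overexpression, with overlapping groups at a level within the range of the negative control rows. Both gelatinases had their lowest signal on control array 2, as had 36.5% of all genes above the background level and 14 of the 30 members.

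The stromelysins have broad substrates and can activate other MMPs. MMP3, stromelysin 1, had 5.63 and 5.77 in controls and 6.10 and 6.20 under overexpression. All 4 values lay near the background level of 5.81, the controls under it and the overexpression arrays above it. MMP3 thus passed the filter only through the overexpression arrays. The log2 difference was 0.45 (standard error 0.22, 95% interval from −0.07 to 0.97). It passed an unadjusted p below 0.05 with the methods' t-test and not in limma. MMP10, stromelysin 2, had 9.55 and 9.81 in controls and 9.57 and 9.93 under overexpression, so the groups overlapped. MMP11 was not above the background level.

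MMP7, matrilysin, is a small MMP of epithelial cells that lacks the hemopexin domain. It had 10.32 and 9.58 in controls and 9.80 and 10.12 under overexpression, with the controls at either extreme. The log2 difference was 0.01 with an interval from −0.69 to 0.70. MMP26, the other matrilysin, was not above the background level.

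Membrane-type MMPs sit on the cell surface. MMP14, which activates the MMP2 precursor together with TIMP2, had 13.84 and 13.80 in controls and 13.92 and 14.13 under overexpression. Both overexpression arrays were higher, by 0.21 on the log2 scale (95% interval from −0.32 to 0.73). MMP16, another activator of the MMP2 precursor, had 7.19 and 6.65 against 6.98 and 7.58, where the spread within each group was as large as the difference of 0.36. MMP17, which is held by a lipid anchor, had a difference of −0.03, and MMP15, MMP24 and MMP25 were not above the background level. Over the 10 MMPs above it, 8 differences were positive and 2 negative, with a median of 0.116 and none passing in limma, where 49.3% of all genes above it were positive. The 8 take in MMP3, which was above that level only on the overexpression arrays. Without control replicate 2 there were 5 positive and 5 negative, with a median of 0.031.

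Among the inhibitors, TIMP1, which blocks most soluble MMPs, had 16.86 in both controls and 17.11 and 17.02 under overexpression. Both overexpression arrays were higher, by 0.20 on the log2 scale or 1.15-fold (95% interval from −0.31 to 0.71). The call depended on the test, since TIMP1 passed an unadjusted p below 0.05 with the methods' t-test and not in limma, whose shared spread gave a standard error of 0.22. TIMP3, the matrix-bound inhibitor that also blocks ADAM17, had 15.27 and 14.90 in controls and 15.06 and 15.08 under overexpression, and the overexpression arrays lay between the controls. TIMP4 had 5.26 and 5.41 against 5.25 and 5.31, under the background level.

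Neighbouring MMP genes form a cluster on chromosome 11, which in the RefSeq gene table runs from MMP7 over MMP20, MMP27, MMP8, MMP10, MMP1, MMP3 and MMP12 to MMP13. Of the 9 genes of this cluster, 5 were above the background level in SAS cells, MMP7, MMP10, MMP1, MMP3 and MMP13, and MMP20, MMP27, MMP8 and MMP12 were not. Their log2 differences ran from −0.06 to 0.45 among the 5, and none of the 9 had an unadjusted p below 0.05 in limma. The 0.45 was that of MMP3, which passed the background level only through the overexpression arrays. Genes above and under the background level thus lie side by side, and MMP8 adjoins MMP10.

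Promoter windows from 250 bases before to 50 bases after the start site were found in the RefSeq table (GRCh38.p14) for 37 of the 62 members, 11 of them MMPs. Each was searched on both strands for TGANTCA, which takes in the AP-1 letters TGAGTCA and TGACTCA but leaves the middle base free. The other patterns were TATAAA, the letters of the TATA box, at any position, and CCGCCC, a GC box as bound by SP1. TGANTCA reads the same on both strands. The patterns were chosen after the values were seen. AP-1 is known to induce MMP genes, and GC boxes are typical of promoters active in many tissues. TGANTCA was found in 3 of 11 MMP promoters (27.3%) and in 7.76% of 27305 promoters of all genes, and TATAAA in 6 of 11 (54.5%) against 12.0%. Of the 3 MMP matches only that of MMP7 has G or C in the middle, as in the AP-1 letters, which 4.92% of all promoters held. The matches in MMP10 and MMP20, TGAATCA, lie outside those letters. TATAAA begins between −31 and −28 bases from the start site in MMP7, MMP10 and MMP26. In MMP8, MMP20 and MMP21 it begins between −110 and −72, so the 6 matches lie at different distances. CCGCCC was found in 4 of 11 MMP promoters (36.4%), in 10 of 11 ADAMTS promoters (90.9%) and in 44.6% of all promoters. Of the 3 MMPs with a window and a signal above the background level, MMP7 and MMP10 held TGANTCA and MMP14 did not, while of the other 8 only MMP20 held it. With 11 promoters these shares are descriptions. Windows are shown for MMP7 (chr11:102530698-102530997 on the minus strand) and MMP10 (chr11:102780579-102780878 on the minus strand), both above the background level, and for the neighbour MMP8 (chr11:102724905-102725204 on the minus strand). Capitals mark TGANTCA and TATAAA.
MMP7: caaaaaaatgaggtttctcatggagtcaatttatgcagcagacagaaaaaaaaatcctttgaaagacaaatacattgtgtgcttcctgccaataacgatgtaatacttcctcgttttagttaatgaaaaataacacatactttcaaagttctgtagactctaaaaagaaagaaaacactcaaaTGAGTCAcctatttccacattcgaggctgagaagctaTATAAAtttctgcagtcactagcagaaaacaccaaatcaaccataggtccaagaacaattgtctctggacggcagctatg
MMP10: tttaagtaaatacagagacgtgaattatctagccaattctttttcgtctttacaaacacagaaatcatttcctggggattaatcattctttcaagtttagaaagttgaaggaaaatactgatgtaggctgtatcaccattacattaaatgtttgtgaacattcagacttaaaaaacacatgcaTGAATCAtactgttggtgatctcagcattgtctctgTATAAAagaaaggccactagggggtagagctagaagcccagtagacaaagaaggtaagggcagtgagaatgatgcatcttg
MMP8: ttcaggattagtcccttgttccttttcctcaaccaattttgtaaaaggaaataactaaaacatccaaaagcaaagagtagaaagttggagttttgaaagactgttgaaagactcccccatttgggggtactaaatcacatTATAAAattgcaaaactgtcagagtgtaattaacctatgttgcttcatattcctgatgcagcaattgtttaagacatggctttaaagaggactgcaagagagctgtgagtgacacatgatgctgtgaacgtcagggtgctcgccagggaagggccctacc
With the start site at position 0, TGANTCA begins at position −67 in both MMP7 and MMP10, and TATAAA at −30 and −31. The windows of MMP7 and MMP10 thus carry both patterns at nearly the same places, though with different middle bases, whereas MMP8 has TATAAA at −110 and no TGANTCA in this window. MMP20, which was not above the background level, has TGANTCA at −112 and TATAAA at −72, so the combination also occurs in a gene under the background level.

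**Figure D3:**
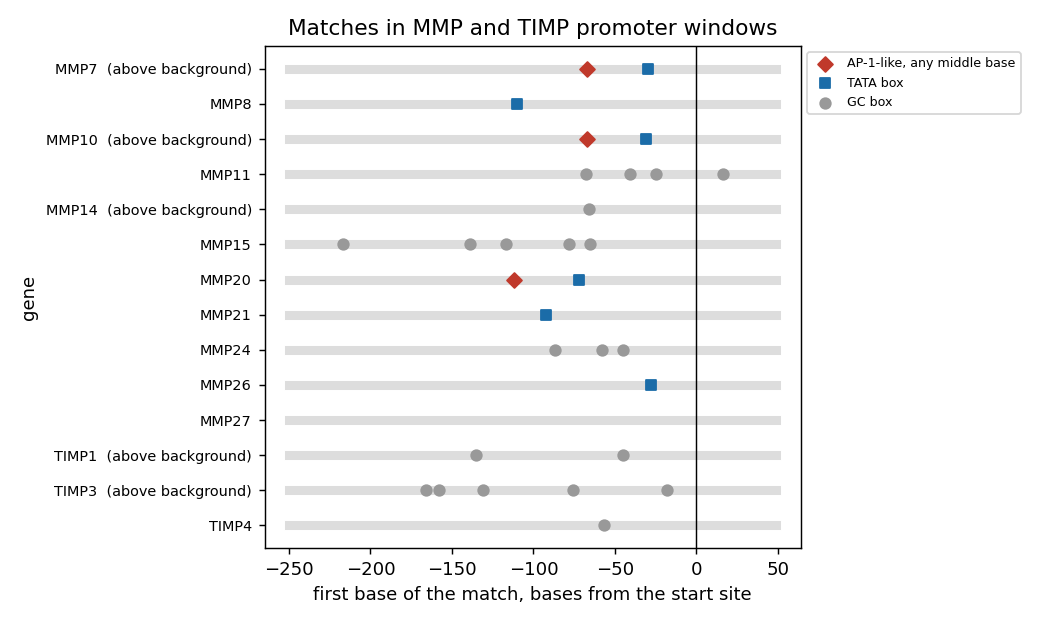
Positions of the 3 searched patterns in the promoter windows of 11 MMP and 3 TIMP genes, as bases from the start site (horizontal axis, start site at 0). Grey bars are the windows searched and red diamonds the AP-1-like pattern with any middle base. Blue squares are TATAAA, the TATA box letters, at any position, and grey circles the GC box. MMP7 and MMP10 have a red diamond at −67, with different middle bases, and the TIMP windows hold GC boxes only.

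Of 14 genes for AP-1 and ETS family factors known to induce MMP genes, 12 were above the background level. FOS and FOSB were not, with means of 5.53 and 5.37. Only 9 of the 12 also exceeded the level of the negative control rows. The median log2 difference of the 12 was 0.11. Of the 14 genes, 0 were higher and 0 lower at an unadjusted p below 0.05 in limma. FOSL1, an AP-1 subunit, had 14.56 and 13.89 in controls and 14.10 and 14.52 under overexpression, and JUN had 10.96 and 10.60 against 11.03 and 10.91. FOSL2 was the member of this list that differed most between the controls, with 10.47 and 8.65, against 10.04 and 9.77 on the overexpression arrays.

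Among the ADAMs with protease activity, ADAM10 and ADAM17 are the principal sheddases of epithelial cells, acting on Notch, E-cadherin and ligands of the EGF receptor. ADAM10 showed log2 signals of 14.44 and 13.99 in controls and 14.30 and 14.32 under overexpression. ADAM17 had 12.88 and 12.53 against 12.73 and 13.01. In both genes the groups overlapped and control array 2 was the lowest array, and the log2 differences of 0.09 and 0.16 had intervals from −0.48 to 0.67 and from −0.41 to 0.73. ADAM9, a related sheddase, had 13.19 and 12.93 against 12.97 and 12.89. ADAM12, known from muscle and placenta and from tumour cells, had 11.52 and 11.41 against 11.36 and 11.50. ADAM19, which sheds neuregulins, had 10.40 and 10.14 against 10.54 and 10.45, with separate groups and a difference of 0.22. These 3 genes had intervals between −0.67 and 0.75.

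ADAM8 and ADAM15 were the members in which the control arrays disagreed most. ADAM8, a sheddase known from leukocytes and invasive tumours, had 10.31 and 9.06 in controls and 10.20 and 10.22 under overexpression. ADAM15, an adhesion-related ADAM, had 9.19 and 7.98 in controls and 8.84 and 8.91 under overexpression. Control array 2 was thus 2.38-fold lower than control array 1 for ADAM8 and 2.30-fold lower for ADAM15, while the overexpression arrays lay close together and near control array 1. These were 2 of the 30 members above the background level, where 2.68% of all such genes differed by over 2-fold between the controls and 1.83% did so with control array 2 lower. The log2 difference between the groups was 0.53 (standard error 0.39) for ADAM8 and 0.29 (standard error 0.38) for ADAM15. It rested on which control was kept. Without control replicate 1 it was 1.15 for ADAM8 and 0.89 for ADAM15. Without control replicate 2 it was −0.10 and −0.31.

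**Figure D4:**
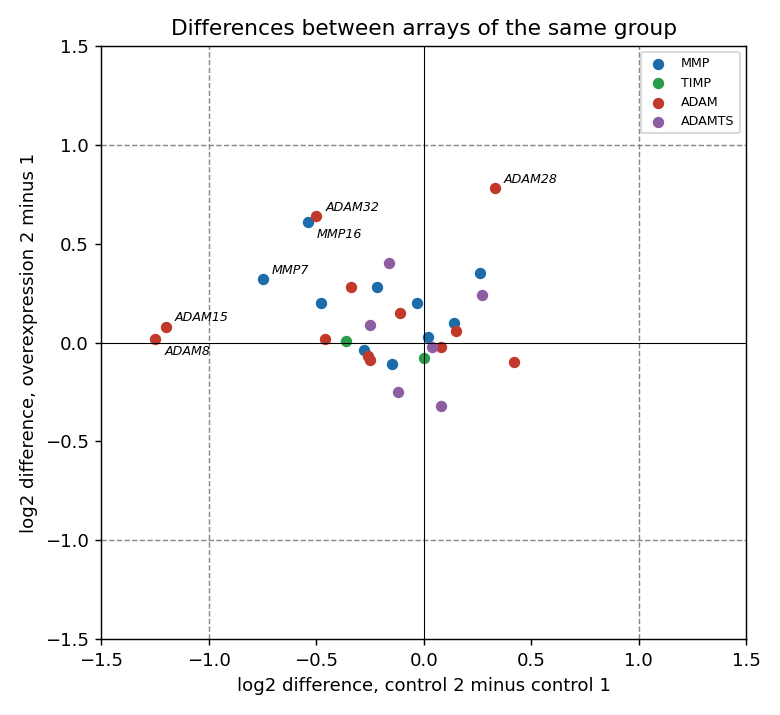
Log2 difference of control array 2 minus 1 (horizontal axis) and of overexpression array 2 minus 1 (vertical axis) for the 30 members above the background level, coloured by family. Dashed lines mark a 2-fold difference. ADAM8 and ADAM15 pass it between the controls, at −1.25 and −1.20, and no member passes it between the overexpression arrays.

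Over the 30 members, the median size of the log2 difference was 0.25 for the control pair and 0.11 for the overexpression pair, against 0.27 and 0.16 over all genes above the background level. Most members thus varied within groups about as other genes did.

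ADAM22, ADAM23, ADAM29 and ADAM32 were the ADAMs without protease activity that were above the background level, of 7 such genes measured. This grouping follows general knowledge of the family and was made after the values were seen. ADAM22 and ADAM23 are adhesion proteins known from the nervous system, where they serve as receptors of the secreted protein LGI1. ADAM23 showed log2 signals of 7.91 and 8.05 in controls and 7.34 and 7.40 under overexpression, giving means of 7.98 ± 0.10 and 7.37 ± 0.04 (each ± SD over 2 arrays). Both overexpression arrays lay below both controls. The log2 difference was −0.61 (standard error 0.22, 95% interval from −1.12 to −0.09), or 1.52-fold lower. It passed an unadjusted p below 0.05, with an adjusted p of 1.00 from limma. Its mean signal of 7.68 lay just within the range of the negative control rows. With 1 array left out the difference stayed between −0.68 and −0.53, and it passed without control replicate 1 and not without control replicate 2, overexpression replicate 1 or overexpression replicate 2.

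ADAM22 had 7.94 and 8.03 in controls and 7.56 and 7.54 under overexpression, so both overexpression arrays were again lower. The log2 difference was −0.44 (95% interval from −0.95 to 0.08) and passed an unadjusted p below 0.05 with the methods' t-test but not in limma. ADAM32 had 6.87 and 6.38 against 6.09 and 6.73, with overlapping groups and a difference of −0.22. ADAM29, a testis gene, had 5.65 and 6.07 against 6.17 and 6.07, with a difference of 0.27 close to the background level. Of these 4 genes 3 thus had negative differences, ADAM32 with overlapping groups, and ADAM29 a positive one.

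The promoter windows of ADAM23 (chr2:206443282-206443581 on the plus strand) and ADAM22 (chr7:87934001-87934300 on the plus strand) are shown because these related genes had the same direction. They were thus picked after the values were seen. Capitals mark CCGCCC on either strand, so that GGGCGG is its reverse complement.
ADAM23: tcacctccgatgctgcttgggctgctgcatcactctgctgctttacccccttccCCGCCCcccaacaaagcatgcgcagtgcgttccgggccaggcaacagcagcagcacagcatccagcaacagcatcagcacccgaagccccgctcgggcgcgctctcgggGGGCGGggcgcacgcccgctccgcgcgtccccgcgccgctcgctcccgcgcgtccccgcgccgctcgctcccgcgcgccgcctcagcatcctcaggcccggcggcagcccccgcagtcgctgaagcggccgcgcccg
ADAM22: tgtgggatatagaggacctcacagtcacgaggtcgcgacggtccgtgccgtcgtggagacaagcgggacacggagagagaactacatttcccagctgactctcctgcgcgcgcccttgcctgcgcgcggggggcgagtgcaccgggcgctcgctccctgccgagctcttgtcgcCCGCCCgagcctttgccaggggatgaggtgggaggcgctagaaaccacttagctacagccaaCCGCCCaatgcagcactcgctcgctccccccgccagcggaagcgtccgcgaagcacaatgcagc
CCGCCC begins at −196 and −87 in ADAM23 and at −76 and −14 in ADAM22. Neither window holds TGANTCA or TATAAA, as is the case for TGANTCA in all 12 ADAM promoters found. CCGCCC was found in 7 of these 12 (58.3%) and in 44.6% of all promoters. The 7 take in ADAM8, ADAM10, ADAM15 and ADAM17, with positive differences, and ADAM12, ADAM22 and ADAM23, with negative ones. The pattern is thus not particular to ADAM22 and ADAM23, and a link to the direction was not tested.

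ADAM28, a metalloprotease of lymphocytes and epithelia, had 6.80 and 7.13 in controls and 5.91 and 6.69 under overexpression. Both overexpression arrays were lower, but they differed from each other by 0.78 on the log2 scale. The difference of −0.67 (standard error 0.31, 95% interval from −1.38 to 0.04) ran from −1.06 without overexpression replicate 2 to −0.28 without overexpression replicate 1. A second row of ADAM28 lay under the background level with a difference of 0.41, so its rows disagree in sign, and their mean gave −0.13.

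ADAMTS1, a proteoglycanase that also restrains blood vessel growth, had 9.05 and 9.13 in controls and 9.33 and 9.01 under overexpression. The groups overlapped, and none of the other 6 proteoglycanases was above the background level. ADAMTS6, a relative of the fibrillin-associated ADAMTS10, and ADAMTS12, which cuts cartilage oligomeric matrix protein, had differences of 0.00 and −0.04, and ADAMTS16 had 0.20. ADAMTS17, a gene of short stature with eye defects, had 5.99 and 6.26 against 5.54 and 5.78, a difference of −0.46. It passed the background level only through the control arrays, and its second row gave 0.68. ADAMTS13, the protease that cuts von Willebrand factor, had 6.13 and 5.97 against 5.61 and 6.01, and its 10 rows gave differences from −0.25 to 0.23, so neither gene has a settled direction. ADAM8 and ADAM29, the other members with a second row, had the same sign on both rows.

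The genes that activate, anchor or assist these proteases were read from 7 lists. No gene of these lists had an unadjusted p below 0.05 in limma as fitted throughout. Among the alternatives that kept all 4 arrays, FURIN passed with trend and robust settings. RHBDF1, PAPPA and the dim SPOCK2 and TNF passed with the methods' t-test. Fits with 1 array left out are not taken into this account. The study took TNF as a raised gene for real-time PCR and reports that it did not match the arrays there. Of 8 proprotein convertases and plasmin activators 6 were above the background level. All 6 differences were positive, with a median of 0.275, where 49.3% of all genes above that level were positive. Without control replicate 2 only 3 of the 6 were positive, with a median of 0.09, against 43.3% of all such genes. FURIN, which removes the propeptide of ADAMs and membrane-type MMPs, had 10.52 and 10.77 in controls and 11.05 and 11.28 under overexpression, a log2 difference of 0.52 (95% interval from −0.03 to 1.07). PCSK7, a related convertase, had 7.37 and 7.64 against 7.94 and 7.86. In both genes, and in PCSK6, the overexpression arrays were higher than both controls. These were 3 of the 6, where 27.6% of all genes above the background level had separate groups, 12.6% higher. PLAU, PLAT and PLAUR had overlapping groups, with differences of 0.20, 0.13 and 0.02.

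Of 9 partners of ADAM10 and ADAM17, 7 were above the background level, with a median of 0.085. TSPAN15, a tetraspanin that steers ADAM10 to its substrates, had 8.35 and 7.64 in controls and 8.68 and 8.47 under overexpression (difference 0.58, 95% interval from −0.09 to 1.24). The difference was 0.93 without control replicate 1 and 0.22 without control replicate 2. TSPAN14, another ADAM10 partner, had 11.31 and 10.21 in controls against 11.12 and 11.32, with control array 2 low as for ADAM8. Its difference was 1.01 without control replicate 1 and −0.10 without control replicate 2. RHBDF2, which carries ADAM17 to the cell surface, had a difference of 0.08.

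Of 10 measured inhibitors and MMP cofactors 5 were above the background level, with a median of 0.146. RECK, a membrane-anchored MMP inhibitor, had 8.51 on both control arrays and 8.53 and 8.42 under overexpression. BSG, an inducer of MMPs, had 15.26 and 15.24 against 15.36 and 15.50. Among 18 measured shed substrates 16 were above the background level, with a median of 0.115. HBEGF, a ligand of the EGF receptor, had 13.85 and 13.57 against 13.78 and 13.77, and the adhesion molecule L1CAM had 10.63 and 8.80 against 10.02 and 10.53. The 2 ADAMTS-like proteins above the background level had a median of 0.047, and the 3 other metzincins above it had −0.214. Medians of these lists stand beside −0.004 over all genes above the background level, and each of the 7 lists held genes above it whose groups overlapped. Without control replicate 2 the medians of the shed substrates (−0.092), the ADAM10 and ADAM17 partners (−0.095) and the inhibitors and cofactors (−0.113) turned negative. That of all genes above the background level was then −0.037. Without overexpression replicate 2 the medians of the partners (−0.134) and the ADAMTS-like proteins (−0.066) turned negative, against −0.016 over all such genes.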

How the data were processed

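RNA of SAS cells, prepared with the WT PLUS reagent, was hybridized on Clariom D arrays, 2 per group. The authors deposited gene-level log2 values, which the labels trace to Expression Console and the methods and submitters' notes to an analysis in Partek. The sources used here do not give the summarising algorithm, its normalization, the build or any version. These log2 values were used as deposited.

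Array controls (2995 of 138745 rows) were left out, and 135750 rows were fitted (lmFit, then eBayes, two-sided) using limma 3.58.1 under R 4.3.3, with Benjamini-Hochberg adjustment over 33458 genes, 1 row each. Of 36176 rows with 1 symbol, 25516 matched RefSeq by gene number and 623 older symbols were updated. The t-test that the study's statistics section lists, without tying it to the arrays, is called the methods' t-test. The steps were tested on simulated data. Members and lists were chosen with earlier results of these data known. Named genes were members above the background level with 1 of the 8 largest differences either way, an unadjusted p below 0.05, or over 2-fold between arrays of a group, and 20 genes picked for known roles, of which 19 had a value. MMP17, ADAMTS6, ADAMTS12 and ADAMTS16 were named after their values were seen, as were dim genes and genes outside the families. The alternatives were the methods' t-test, limma with trend and robust settings, quantile normalization, median centring, the mean of all rows of a gene, only genes above the background level, the replicate block and leaving out each array.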

Additional observations from a re-analysis of the deposited data

How the results depend on the processing

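Members at an unadjusted p below 0.05 went from 0 higher and 1 lower to 2 and 3 with the methods' t-test. They went to 2 lower with quantile normalization, which added the dim ADAMTS9, and to 2 lower with the replicate block, which added ADAM28. Shares of all genes were counted only for the main limma fit and the methods' t-test, so the other counts stand without a background. Which members passed also changed with the array left out. Without control replicate 1 the log2 difference was 1.15 for ADAM8 and 0.89 for ADAM15, and without control replicate 2 it was −0.10 and −0.31. Members at an adjusted p stayed at 0 in all of these settings. The median log2 difference of the 30 members ranged from −0.091, without control replicate 2, to 0.125 with 1 array left out. Members over 2-fold apart between the controls went from 2 to 1 with the mean of all rows of a gene. ADAM8 has a second, dim row with 4.70 and 4.02 in controls, which enters that mean, while ADAM15 has 1 row. The cause of the differences between the controls was not tested. Deviations of same-numbered arrays from their group means correlated at r = −0.112 over all genes and −0.271 over genes above the background level. Same-numbered arrays thus did not deviate in the same direction, which does not tell how the arrays were handled. The replicate block changed no other call of the named members. C6orf141 kept its direction, from 3.12 to 3.80 with 1 array left out.

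The sign turned for TIMP3 with quantile normalization (0.01) and for ADAMTS13 (0.05) and ADAMTS17 (0.11) with the mean of their rows. With 1 array left out it turned within −0.14 to 0.32 for ADAM10, −0.11 to 0.04 for ADAM12 and −0.31 to 0.89 for ADAM15. It also turned within −0.00965 to 0.33 for ADAM17, −0.54 to 0.11 for ADAM32 and −0.10 to 1.15 for ADAM8. Likewise it turned within −0.08 to 0.24 for ADAMTS1, −0.11 to 0.24 for MMP10 and −0.05 to 0.23 for MMP13. The same held within −0.37 to 0.38 for MMP7 and −0.09 to 0.39 for MMP9. For TIMP3 the range was −0.19 to 0.17 and for TIMP4 −0.13 to 0.02. A lone array left in a group was taken to vary as much as the pair in the other group.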
